A study of Mus musculus with 10 samples.

Results

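The interaction between Fap genotype and dietary fat was described here for the mammary fat pad transcriptome, that is, for each gene, how far its difference between the diets in Fap-null mice departed from its difference between the diets in wild-type mice. The tissue was the mammary fat pad of female FVB mice, a subcutaneous depot of the groin (inguinal), from which total RNA without ribosomal RNA was sequenced. Wild-type and FAP-/- mice received ingredient-matched diets with 10% or 60% of their calories from fat from 12 to 30 weeks of age. The 10 libraries were 2 wild-type on the low-fat diet (WT_LFD), 3 null on the low-fat diet (Null_LFD), 2 wild-type on the high-fat diet (WT_HFD) and 3 null on the high-fat diet (Null_HFD), described by the submitters as biological replicates. All 10 samples of the series entered the contrast, which needs all 4 groups. The labels give the genotype of the null mice as FAP-/- and do not say which part of Fap is disrupted.

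No gene passed the test of this interaction, so the patterns below are measured differences between these libraries. Genes of milk-producing mammary epithelium were by median higher on the high-fat diet in wild-type pads and lower on it in null pads. Their median interaction was -3.37 over 19 genes, and the mean level of the list overlapped between the null diets. Genes of cholesterol synthesis and uptake had a median interaction of 0.974 over 23 genes. Their median diet difference was -0.955 in wild-type pads and 0.175 in null pads. Mest, a marker of fat expansion, and the leptin gene Lep had their highest levels in the null mice fed the high-fat diet, and genes of the mTOR pathway lay close to the median of all genes.

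For each gene the interaction was the high-fat minus low-fat difference in null pads less the same difference in wild-type pads, on the log2 scale of TPM + 1. TPM is a transcript's share of all transcripts in a library, so it is already scaled for transcript length and library size. A positive interaction means that the gene was higher on the high-fat diet by more (or lower by less) in null pads than in wild-type pads, and a negative one means the reverse. Genes entered the test where at least 1 TPM was reached in at least 2 libraries, which 16932 of 30319 genes with a symbol did. At the edge of that filter, the second-highest library of the last gene kept was at 1.0003 TPM and that of the first gene left out at 0.9994 TPM.

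Fibroblast activation protein, the product of Fap, is a membrane serine protease that cuts after proline. It is found on activated fibroblasts, trims collagen fragments in the extracellular matrix and inactivates the metabolic hormone FGF21. The mammary fat pad of an adult female mouse holds adipocytes, their progenitors, blood vessels and immune cells around a tree of epithelial ducts with an inner luminal and an outer basal layer, and the inguinal pad also encloses a lymph node. A diet rich in fat supplies fatty acids and enlarges adipocytes. Adipocytes fed in this way are known to make less of the enzymes of fatty acid synthesis and more leptin.

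All 6 mature adipocyte markers were above 1 TPM in every library and summed to between 10070 and 31670 TPM. Libraries held 14574 to 15700 genes at 1 TPM or more, and the read depth behind the values is unknown because TPM keep no read numbers. Mitochondrially encoded genes took 3.36% (Null_HFD 3) to 13.8% (WT_LFD 2) of TPM. WT_HFD 2 and Null_HFD 3 stood apart by genes of the lymph node, as their 4 B cell markers summed to 235 and 625 TPM, against 3.72 to 7.87 TPM in the other 8 libraries. The 5 skeletal muscle markers were low in the same 2 libraries, at 146 and 67.2 TPM against 1317 to 6373 TPM in the other 8. Each high-fat group holds one of them, and values without both are given below where they bear on a result. In bulk samples such as these, fewer cells of a type and less RNA per cell cannot be told apart.

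Fap itself showed no interaction that passed. Its transcript measured 45.4 and 39.2 TPM in WT_LFD, 68.8 and 37.7 in WT_HFD, 18.4, 22.4 and 18.3 in Null_LFD and 26.7, 38.4 and 22.3 in Null_HFD. Null libraries were the lower ones on the low-fat diet, whereas on the high-fat diet Null_HFD 2 lay just above WT_HFD 2. The high-fat minus low-fat difference was 0.27 (SE 0.33) in wild type and 0.51 (SE 0.27) in null, an interaction of 0.25 (SE 0.42, limma Benjamini-Hochberg adjusted p = 0.9998). Without WT_HFD 2 the interaction of Fap was -0.18. The gene lies at chromosome 2, 62500943 to 62574075 (GRCm38, ENSMUSG00000000392.17), and its transcript was measured in all null libraries, so its level is only a partial check of the genotype.

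No gene passed the test of the interaction. With limma and Benjamini-Hochberg adjustment over the 16932 genes, 0 genes (0%) reached an adjusted p of 0.05, and the smallest adjusted p was 0.234. At an unadjusted p under 0.05 there were 701 genes (4.14%), fewer than the 847 that 5% of the genes would make. Of these, 182 (1.07%) had a positive and 519 (3.07%) a negative interaction. Leaving out Null_HFD 3 gave 437 positive and 804 negative genes, and leaving out WT_LFD 2 gave 211 and 258. All values that follow therefore describe these 10 libraries and are not calls, and "higher" or "lower" refers to measured levels.

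Most of these 701 genes had diet differences of opposite sign in the 2 genotypes. Of the 519 negative genes, 477 were higher on the high-fat diet in wild-type pads and lower on it in null pads. Of the 182 positive genes, 155 showed the opposite arrangement. Over all genes tested, 6593 (38.9%) had diet differences of opposite sign. The 701 genes were chosen by the gap between the same 2 diet differences, and a wide gap favours opposite signs. Their counts therefore do not show that reversal is a trait of these genes. Across the 16932 genes, which are not independent replicates, the Pearson correlation of the diet differences of the 2 genotypes, which share no library, was 0.29, and it was -0.00628 without WT_HFD 2 and Null_HFD 3.

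The whole distribution leaned to negative values. The median interaction over all genes was -0.13, and 10456 genes lay below and 6476 above 0. The median diet difference was 0.197 in wild type and 0.0432 in null, and the median null minus wild-type difference was 0.146 on the low-fat and 0.0164 on the high-fat diet. Median-of-ratios scaling of the libraries moved the median interaction to -0.02. It also moved the share of positive genes among those at an unadjusted p under 0.05 from 26% to 42%, so the excess of negative genes depends in part on the scaling. The median standard error of an interaction was 0.495, since it combines the errors of 4 group means.

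**Figure D1:**
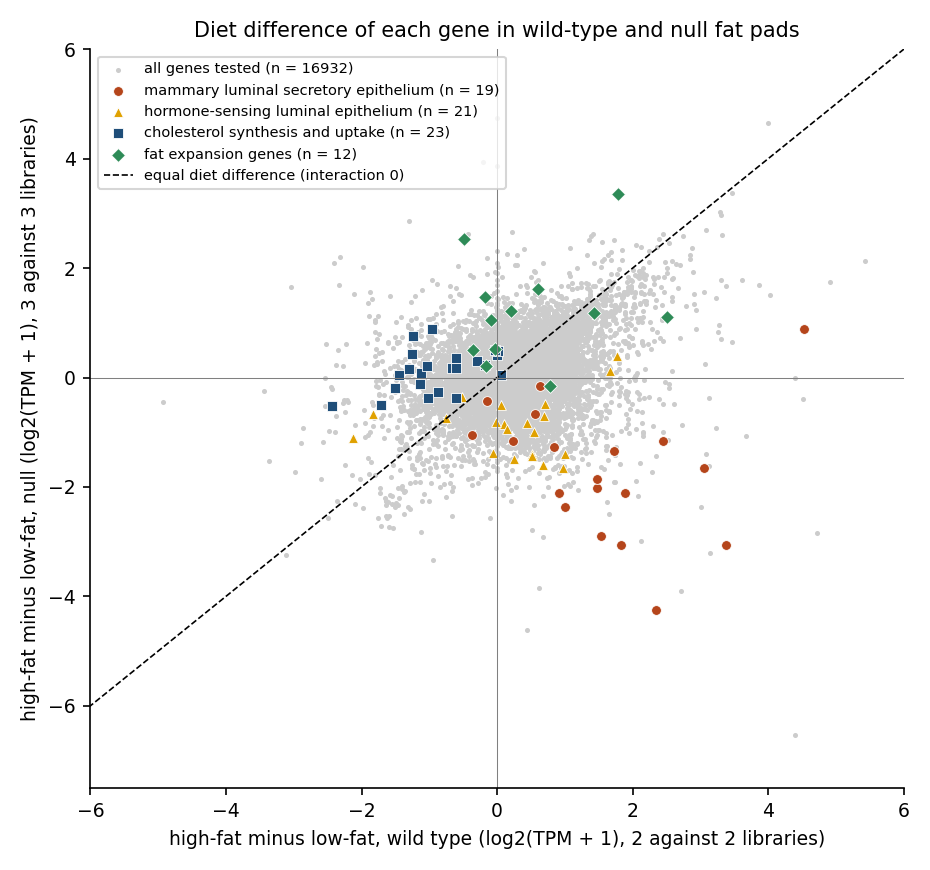
Each point is a gene, placed by its high-fat minus low-fat difference in wild-type pads (x axis) and in null pads (y axis), both on the log2(TPM + 1) scale, with 4 gene lists in colour. Most secretory epithelial genes (circles) lie in the lower right, above 0 in wild type and below 0 in null, while most cholesterol genes (squares) lie left of 0 and above the dashed line of equal differences.

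Among 46 gene lists, both luminal epithelial lists and the cell cycle list had the most negative medians, and those of sterol synthesis, thermogenic fat and fat expansion stood at the positive end. The secretory luminal list had a median interaction of -3.37, the hormone-sensing luminal list -1.31 and the cell cycle list -1.15. Leaving out 1 library turned the sign of the median in 28 of the 46 lists for at least one choice of library, and in the other 18 the sign stayed the same for each of them. Thermogenic fat genes had a median of 1.02, cholesterol genes 0.974 and fat expansion genes 0.931. The 4 lists drawn in colour are those with at least 25% of their tested members at an unadjusted p under 0.05 in one direction, a choice made after their values were seen.

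**Figure D2:**
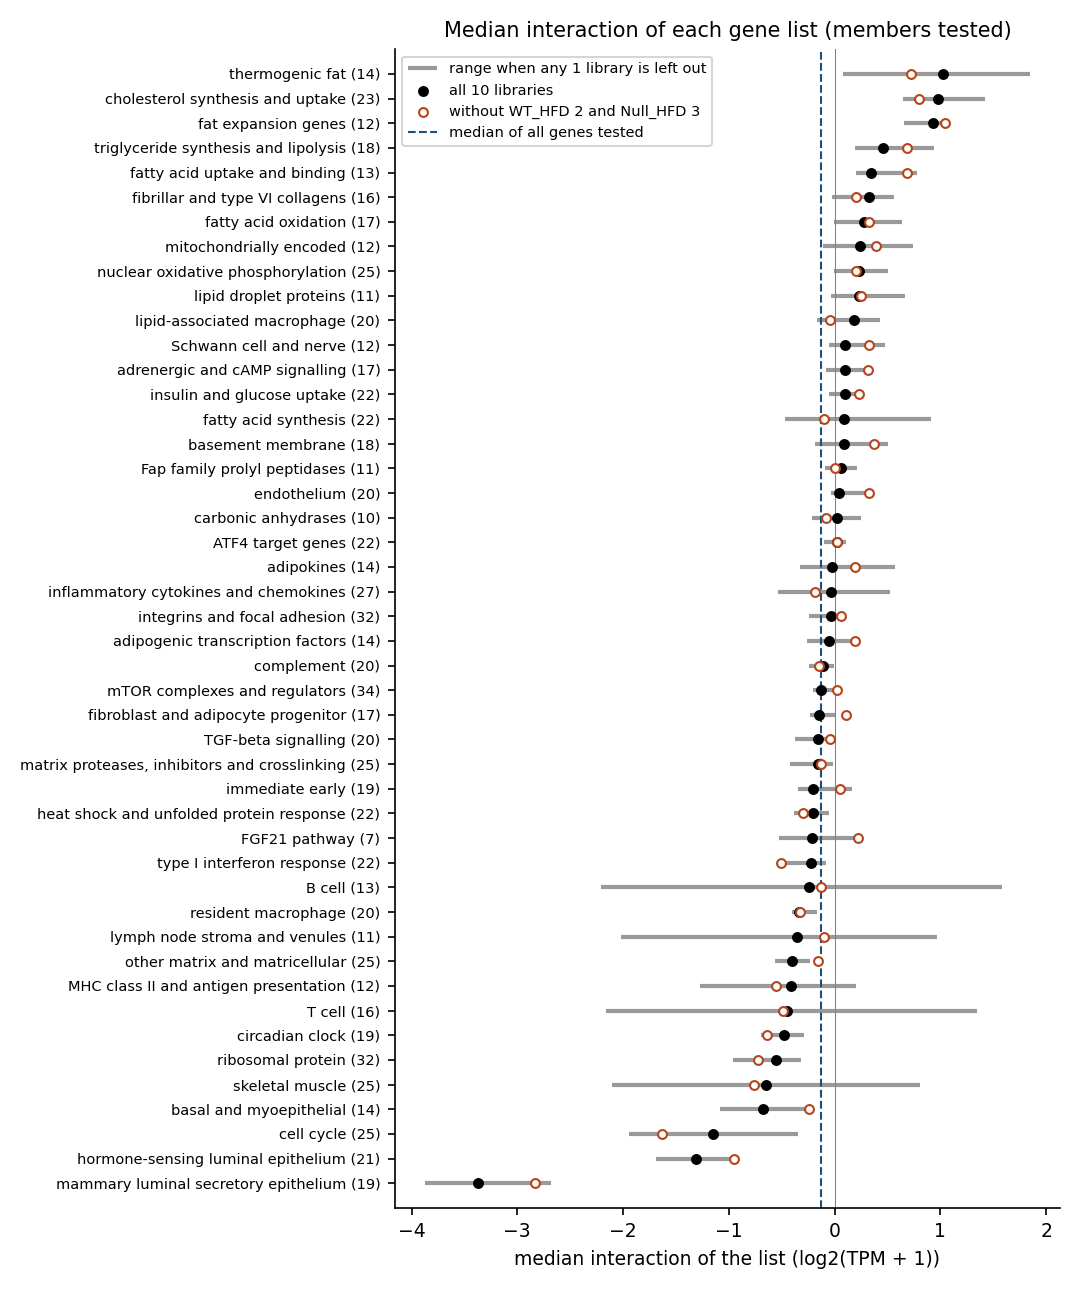
Median interaction (log2(TPM + 1)) of the tested members of each gene list, with the number of members in brackets, for all 10 libraries (black) and without the 2 lymph node-rich libraries (open), and the range when any 1 library is left out (grey bars). The secretory luminal list at -3.37 stays at or below -2.68 in every case drawn, whereas the bars of the B cell, T cell and muscle lists span 0.

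Genes of the milk-producing luminal cells had the median farthest from 0 of the 46 lists. All 19 tested members of the 20-gene list had a negative interaction, and 11 of them (57.9%, against 3.07% of all genes) had an unadjusted p under 0.05, although 0 passed the adjustment. Their median diet difference was 1.47 in wild-type pads and -1.65 in null pads. In the mean log2 deviation of the list per library, the wild-type diets were separate. The null diets overlapped, as Null_HFD 1 (0.377) lay above Null_LFD 3 (-0.456). On the low-fat diet the list was higher in null than in wild-type pads by a median of 2.06, and on the high-fat diet the median difference was -1.02. The list median ran from -3.87 without WT_LFD 1 to -2.68 without WT_LFD 2, was -2.83 without both lymph node-rich libraries and -3.24 with median-of-ratios scaling.

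The caseins are the main proteins of milk, and most of their genes sit in a cluster on chromosome 5. Csn3, which encodes kappa-casein (ENSMUSG00000001622.15, chromosome 5, 87925579 to 87932665, GRCm38), measured 223 and 63.1 TPM in WT_LFD, 497 and 391 in WT_HFD, 1306, 1059 and 358 in Null_LFD and 353, 137 and 124 in Null_HFD. The high-fat libraries were all above the low-fat ones in wild type and all below them in null, the latter by a narrow margin of 358 against 353 TPM. The interaction of Csn3 was -4.00 (SE 0.99, limma adjusted p = 0.966).

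Csn1s1, for alpha-casein, measured 243 and 25.4 TPM in WT_LFD, 441 and 182 in WT_HFD, 1084, 1367 and 261 in Null_LFD and 355, 59.7 and 29.8 in Null_HFD, with an interaction of -4.89 (SE 1.71). Csn1s2a, for a second alpha-type casein, measured 115 and 9.28 TPM in WT_LFD, 437 and 292 in WT_HFD, 2764, 1666 and 111 in Null_LFD and 661, 90.1 and 13.5 in Null_HFD, with an interaction of -6.44 (SE 2.49). Csn2, for beta-casein, measured 79.4 and 7.12 TPM in WT_LFD, 273 and 60.7 in WT_HFD, 717, 594 and 89 in Null_LFD and 152, 36.2 and 0 in Null_HFD, with an interaction of -6.59 (SE 2.74). For these 3 genes the libraries of a group were far apart: WT_LFD 1 was well above WT_LFD 2, Null_LFD 3 was well below Null_LFD 1 and 2, and Csn2 was listed at 0 in Null_HFD 3. All 3 had an unadjusted p under 0.05 and a limma adjusted p of 0.9998. Null_LFD 1 and 2, where these genes were highest, also had the highest sums of the skeletal muscle markers, 6373 and 4376 TPM, whose part in the result was not tested.

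The promoter of Csn1s1 is printed because casein genes are targets of prolactin through the transcription factor STAT5, which binds gamma-activated sites. It covers chr5:87665958-87666207 on the plus strand (RefSeq, GRCm38.p6), the 250 bases before the transcription start, with the match to TTCNNNGAA in capitals.
Csn1s1: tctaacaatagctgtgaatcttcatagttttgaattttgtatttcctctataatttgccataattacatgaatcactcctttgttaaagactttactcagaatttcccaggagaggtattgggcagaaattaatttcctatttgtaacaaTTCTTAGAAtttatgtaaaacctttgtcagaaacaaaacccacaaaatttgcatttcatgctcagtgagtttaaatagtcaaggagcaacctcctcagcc
The motif was searched on both strands in windows from 250 bases before to 50 bases after each RefSeq start, and its last base lies 92 bases before the start of Csn1s1. It occurred in 4 of 16 promoters (25%) of the 13 secretory list genes with an entry, those of Csn1s1, Csn1s2a, Csn2 and Glycam1, and in 8.3% of all 32851 promoters. A match of letters is a description of the window and not evidence of binding.

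Whey acidic protein, encoded by Wap, was listed at 0 in both WT_LFD libraries and measured 4.6 and 0.497 TPM in WT_HFD. It measured 40.0, 8.07 and 2.21 TPM in Null_LFD and 1.91 TPM in Null_HFD 1, and was listed at 0 in Null_HFD 2 and 3. Lalba, for alpha-lactalbumin, the subunit that directs lactose synthesis, measured 14.8 and 3.1 TPM in WT_LFD, 82.9 and 22.1 in WT_HFD, 293, 259.6 and 0.622 in Null_LFD and 68.6, 8.89 and 15.1 in Null_HFD, and its interaction of -3.62 had an SE of 2.85. Null_LFD 3 stood far below the other Null_LFD libraries for Lalba. Glycam1, which the mammary gland shares with the venules of lymph nodes, was listed at 0 in WT_HFD 1 and measured 674 TPM in WT_HFD 2 and 13.2, 3.81 and 1264 TPM in Null_HFD, with its highest values in the 2 lymph node-rich libraries. Its interaction of -3.63 (SE 3.89) became 1.07 without WT_HFD 2.

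The list also holds genes of these cells that do not encode milk proteins. Elf5, the transcription factor that specifies secretory luminal cells (chromosome 2, 103411688 to 103450989, GRCm38), measured 29.9 and 17.2 TPM in WT_LFD, 82.4 and 72.2 in WT_HFD, 83.8, 119 and 54.1 in Null_LFD and 58.5, 34.2 and 15.5 in Null_HFD. Both WT_HFD libraries exceeded both WT_LFD libraries, and the null groups overlapped because Null_HFD 1 exceeded Null_LFD 3. Elf5 had an interaction of -3.06 (SE 0.72, limma adjusted p = 0.966).

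Folr1, the folate receptor alpha gene (chromosome 7, 101858331 to 101870788), measured 9.05 and 7.14 TPM in WT_LFD, 26.9 and 21.6 in WT_HFD, 58, 54.5 and 15.4 in Null_LFD and 14.9, 7.25 and 7.71 in Null_HFD. Neither genotype showed any overlap between the diets for Folr1, and the interaction was -3.32 (SE 0.76). It had the smallest p of the list (limma adjusted p = 0.938). Spp1, which encodes osteopontin, a secreted phosphoprotein of milk and of macrophages, measured 197 and 46.1 TPM in WT_LFD, 767 and 827 in WT_HFD, 2926, 641 and 177 in Null_LFD and 396, 165 and 161 in Null_HFD, with an interaction of -4.70 (SE 1.46). The wild-type diets of Spp1 did not overlap, whereas Null_HFD 1 lay above Null_LFD 3.

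The mucin gene Muc15 had an interaction of -3.37 (SE 1.20), the lipase gene Cel -3.49 (SE 1.45) and the receptor tyrosine kinase gene Kit -1.24 (SE 0.51). The member nearest to 0 was Aldh1a3, an aldehyde dehydrogenase of luminal progenitors, at -0.29. The 19 members ran from -6.59 (Csn2) to -0.29 (Aldh1a3).

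**Figure D3:**
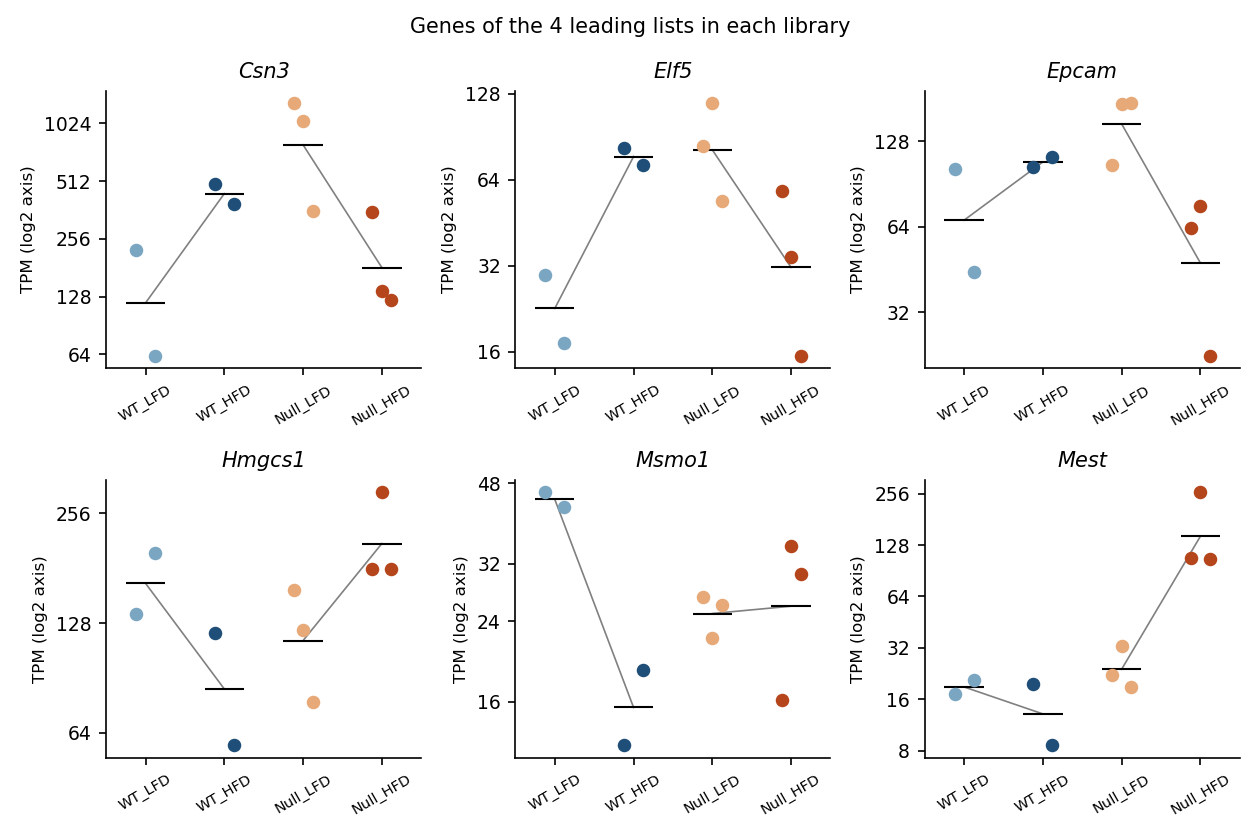
TPM of 6 genes in each of the 10 libraries on log2 axes, with the group mean on the log2(TPM + 1) scale as a bar and grey lines joining the diets of a genotype. Lines for Csn3, Elf5 and Epcam run up in wild type and down in null, the line for Hmgcs1 runs the other way, that for Msmo1 runs down in wild type and nearly level in null, and Mest is high only in the 3 Null_HFD libraries (106 to 260 TPM).

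The hormone-sensing luminal list, which also holds genes of luminal epithelium in general such as Epcam and Cldn3, leaned the same way but less. Its median therefore does not describe hormone-sensing cells alone. Of 21 members, 17 had a negative and 4 a positive interaction, beside 10456 and 6476 of all 16932 genes. An unadjusted p under 0.05 was reached by 6 (28.6%, against 3.07% of all genes), all negative. The median interaction was -1.31, from a diet difference of 0.442 in wild type and -0.848 in null. It ran from -1.69 without WT_LFD 1 to -0.901 without WT_LFD 2, and was -0.953 without both lymph node-rich libraries.

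Epcam, an epithelial cell adhesion molecule (chromosome 17, 87635979 to 87651129), measured 103 and 44.5 TPM in WT_LFD, 104 and 112 in WT_HFD, 106, 174 and 175 in Null_LFD and 63.3, 75.9 and 22.6 in Null_HFD. The diets did not overlap in either genotype, though WT_LFD 1 and WT_HFD 1 were almost equal, and the interaction was -2.28 (SE 0.73, limma adjusted p = 0.9998). Cldn3, a tight junction claudin, measured 20.7 and 9.31 TPM in WT_LFD, 26 and 30.9 in WT_HFD, 29, 55.3 and 40.5 in Null_LFD and 14.1, 24.1 and 4.86 in Null_HFD, with an interaction of -2.63 (SE 0.81). Cdh1, for E-cadherin, measured 33.7 and 13.8 TPM in WT_LFD, 29 and 34 in WT_HFD, 28, 50.6 and 48.9 in Null_LFD and 15.4, 23.2 and 8.35 in Null_HFD, with an interaction of -1.96 (SE 0.67). The wild-type diets overlapped for Cdh1, and its null diets were separate.

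The simple-epithelium keratins Krt8 and Krt18 had interactions of -1.73 (SE 0.77) and -1.91 (SE 0.71), and the epithelial transcription factor gene Ehf -2.40 (SE 0.83). The progesterone receptor gene Pgr, which marks hormone-sensing cells proper, went the other way in value, at 1.16 (SE 0.70, limma adjusted p = 0.9998). It measured 18.5 and 13.9 TPM in WT_LFD, 3.16 and 4.47 in WT_HFD, 6.87, 25.6 and 10.0 in Null_LFD and 10.9, 6.59 and 5.31 in Null_HFD. Both WT_HFD libraries of Pgr were below both WT_LFD libraries, and the null diets overlapped.

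Basal and myoepithelial genes shared the sign in 11 of 14 members, with a median of -0.68. Of the 14, 2 (14.3%, against 3.07% of all genes) had an unadjusted p under 0.05. Trp63, the master transcription factor of basal epithelium (chromosome 16, 25683763 to 25892102), measured 8.85 and 5.14 TPM in WT_LFD, 10.8 and 11 in WT_HFD, 16.5, 21.5 and 23.2 in Null_LFD and 10.7, 6.52 and 1.9 in Null_HFD. In both genotypes the diets were separate for Trp63, and its interaction was -2.36 (SE 0.73). Cdh3, for P-cadherin, had an interaction of -1.55 (SE 0.55), and the basal keratins Krt5 and Krt14 -1.57 (SE 0.84) and -1.51 (SE 0.80). The basal median was -0.219 without WT_LFD 2 and -0.244 without both lymph node-rich libraries.

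Sums of epithelial markers were separate between the diets in both genotypes for the luminal markers and overlapped for the basal ones. The luminal sum is not independent of the lists, which hold its markers. The 5 luminal markers Krt8, Krt18, Elf5, Csn3 and Epcam, which are also members of the lists, summed to 305 to 721 TPM in WT_LFD, 913 to 1037 in WT_HFD, 1110 to 2113 in Null_LFD and 257 to 706 in Null_HFD. All 5 were above 1 TPM in every library. The 4 basal markers summed to 31.3 to 79.9 TPM in WT_LFD, 57.1 to 69.5 in WT_HFD, 80.5 to 128 in Null_LFD and 30.2 to 96.3 in Null_HFD. The part of epithelial content in the interaction of single epithelial genes was not tested.

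**Figure D4:**
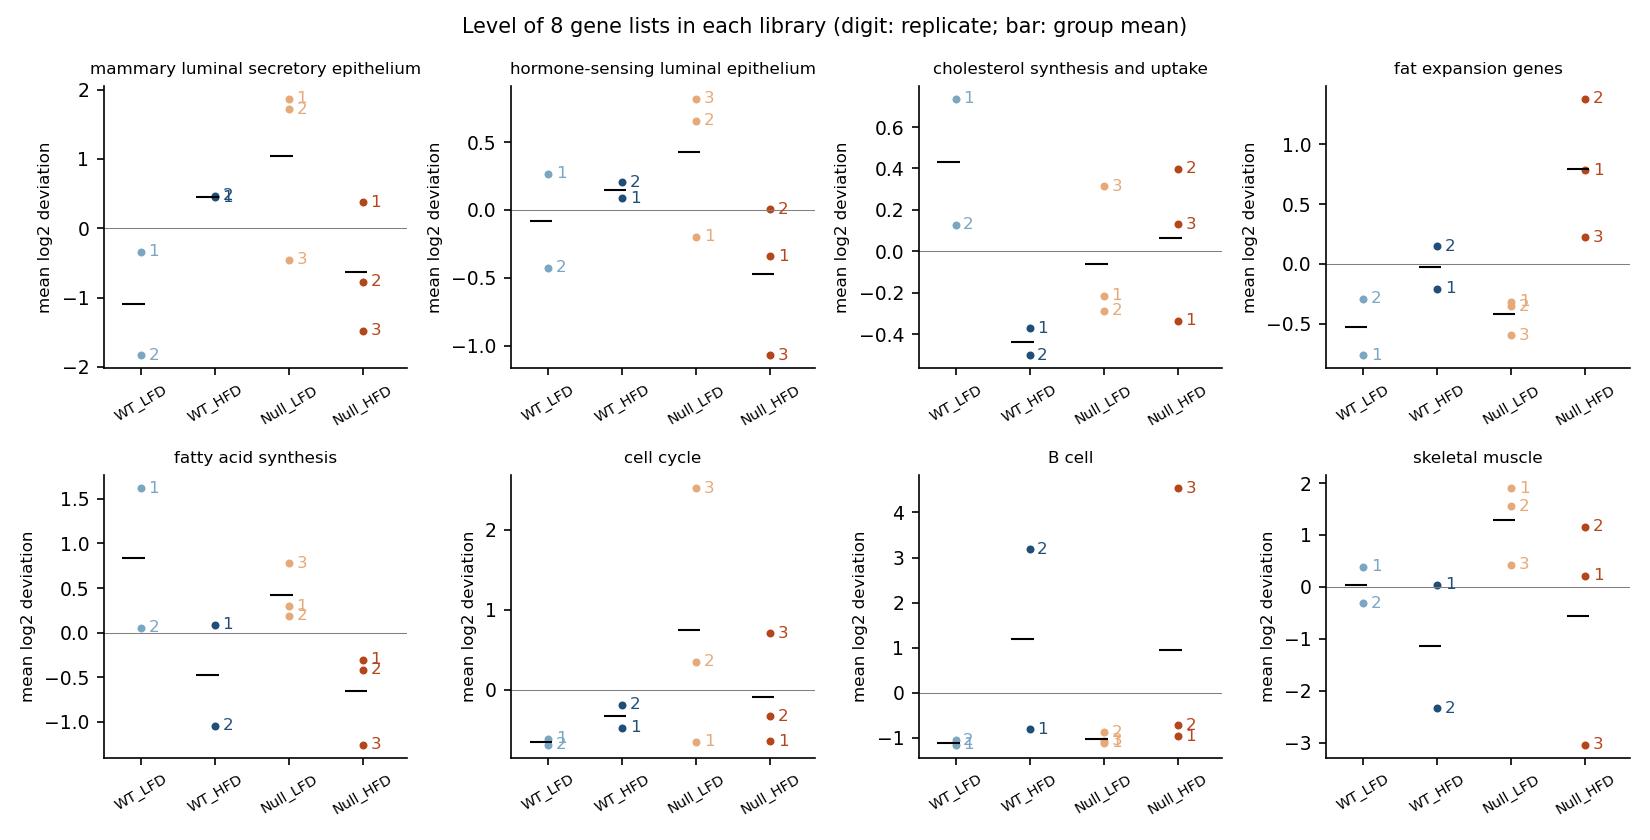
Mean log2 deviation of the members of 8 gene lists from their mean over the 10 libraries (y axis), by group, with the replicate number beside each point and the group mean as a bar. The secretory list lies at -0.339 and -1.83 in WT_LFD and at 1.87, 1.72 and -0.456 in Null_LFD, the cell cycle list is at 2.52 in Null_LFD 3, and the B cell list is high in WT_HFD 2 (3.19) and Null_HFD 3 (4.54).

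Genes of cholesterol synthesis and uptake leaned to the positive side almost without exception. Cells make cholesterol from acetyl-CoA through mevalonate or take it up from lipoproteins, and the transcription factor SREBP2 turns on genes of both routes when sterols are scarce. Of 23 tested members, 22 had a positive interaction, and 6 (26.1%, against 1.07% of all genes) had an unadjusted p under 0.05. The median diet difference was -0.955 in wild type and 0.175 in null, giving a median interaction of 0.974. On the low-fat diet the list was lower in null than in wild-type pads (median difference -0.52), and on the high-fat diet it was higher (0.509). Without WT_LFD 1 the median interaction was 0.643, and without WT_LFD 2 it was 1.42.

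Hmgcs1, a synthase at the head of the pathway (ENSMUSG00000093930.2, chromosome 13, 119690379 to 119708260), measured 136 and 199 TPM in WT_LFD, 120.0 and 59.2 in WT_HFD, 158, 122 and 77.8 in Null_LFD and 179.9, 293 and 180.1 in Null_HFD. Wild-type libraries were lower on the high-fat diet and null libraries higher, without overlap in either genotype. The interaction of Hmgcs1 was 1.83 (SE 0.56, limma adjusted p = 0.9998).

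Further along the pathway, Msmo1, a sterol C4-methyl oxidase, measured 45.8 and 42.7 TPM in WT_LFD, 12.9 and 18.7 in WT_HFD, 27, 22 and 26 in Null_LFD and 16.1, 35.1 and 30.4 in Null_HFD. In wild type both high-fat libraries were below both low-fat ones, while the null diets overlapped, and the interaction was 1.50 (SE 0.45). Cyp51, the lanosterol demethylase, had an interaction of 1.45 (SE 0.52) and Sc5d, a sterol desaturase, 1.25 (SE 0.44). Idi1, an isomerase of the isoprenoid steps, stood at 1.21 (SE 0.67) and Sqle, the squalene epoxidase, at 0.64 (SE 0.68), both with unadjusted p above 0.05.

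Insig1, which holds the SREBP activator in the endoplasmic reticulum when sterols are plentiful and is itself a SREBP target, measured 545 and 390.3 TPM in WT_LFD, 133 and 54.1 in WT_HFD, 279.5, 127 and 173 in Null_LFD and 88.6, 207 and 111 in Null_HFD. Insig1 was lower on the high-fat diet in wild type by a difference of -2.43 (SE 0.53) and differed in null by -0.53 (SE 0.44), giving an interaction of 1.90 (SE 0.69). The regulator gene Srebf2 itself had an interaction of 0.53 (SE 0.48, limma adjusted p = 0.9998).

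The promoters of Hmgcs1 and Insig1 are shown as examples of sterol-regulated genes of this list, with matches to TCACNCCAC, a sterol element type, and to the CCAAT box in capitals (ATTGG is CCAAT on the other strand). They cover chr13:119690101-119690350 and chr5:28071162-28071362, both on the plus strand (RefSeq, GRCm38.p6), and end before the start of the annotated gene.
Hmgcs1: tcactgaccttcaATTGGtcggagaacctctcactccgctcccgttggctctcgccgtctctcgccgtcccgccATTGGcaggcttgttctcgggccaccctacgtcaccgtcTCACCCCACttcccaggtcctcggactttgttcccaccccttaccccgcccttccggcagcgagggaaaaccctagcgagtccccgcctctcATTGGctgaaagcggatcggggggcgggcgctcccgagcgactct
Insig1: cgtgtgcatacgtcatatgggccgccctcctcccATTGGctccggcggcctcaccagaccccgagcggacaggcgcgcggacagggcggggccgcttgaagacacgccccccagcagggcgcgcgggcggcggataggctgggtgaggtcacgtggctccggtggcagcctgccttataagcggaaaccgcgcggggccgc
The Hmgcs1 promoter holds 1 TCACNCCAC, whose last base lies 129 bases before the RefSeq start, and 3 CCAAT boxes, at 233, 172 and 41 bases. The Insig1 stretch holds 1 CCAAT box, 212 bases before the RefSeq start. In windows of 250 bases before to 50 after the start, searched on both strands, CCAAT was present in 15 of 19 promoters (78.9%) of the 16 list genes with an entry and in 37.4% of all 32851 promoters. TCACNCCAC was present in 1 of the 19 (5.26%), that of Hmgcs1, and in 1.24% of all promoters. In the secretory luminal list it was present in 1 of 16 promoters (6.25%), that of Spp1.

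Fatty acid synthesis genes, which share regulators with the sterol genes, had a median interaction near 0. The list had 12 positive and 10 negative members of 22 and a median of 0.0885, with diet differences of -1.29 in wild type and -0.886 in null. The median ran from -0.466 without WT_HFD 2 to 0.91 without WT_LFD 2. Fasn, the fatty acid synthase gene, measured 3006 and 581 TPM in WT_LFD, 741 and 72.5 in WT_HFD, 988, 863 and 1158 in Null_LFD and 297, 171 and 92 in Null_HFD. Its group mean was lower on the high-fat diet in both genotypes, by differences of -2.50 (SE 1.05) and -2.57 (SE 0.86), and its interaction was -0.06 (SE 1.36), which scaling turned to 0.0628. Scd1, for the stearoyl-CoA desaturase, had an interaction of 0.46 (SE 1.12).

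In that list 2 members (9.09%, against 1.07% of all genes) had an unadjusted p under 0.05, Pnpla3 and Elovl5. Pnpla3, which encodes a lipid droplet acylhydrolase, measured 341 and 179 TPM in WT_LFD, 82.7 and 61.3 in WT_HFD, 76.6, 90.9 and 104 in Null_LFD and 118, 158 and 71.9 in Null_HFD. WT_LFD libraries were the highest of all for Pnpla3, and the other 3 groups overlapped, with an interaction of 2.07 (SE 0.52). Elovl5, a fatty acid elongase gene, had an interaction of 0.84 (SE 0.33). Of 18 genes of triglyceride synthesis and lipolysis, 15 were positive, beside 6476 of all 16932 genes. Their median was 0.457 and 0 had an unadjusted p under 0.05. That median was 0.191 without Null_HFD 1 and 0.935 without WT_HFD 1. The acyltransferase gene Dgat2, which makes the last bond of a triglyceride, stood at 1.57 (SE 0.78).

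Fat expansion genes, a group known to track the growth of adipocytes, had a median interaction of 0.931. Of 12 members 9 were positive, and 3 (25%, against 1.07% of all genes) had an unadjusted p under 0.05. The median diet difference of the list was 0.084 in wild type and 1.15 in null. The imprinted gene Mest (chromosome 6, 30723547 to 30748465), an early marker of fat mass expansion in mice, measured 17.2 and 20.7 TPM in WT_LFD, 19.7 and 8.66 in WT_HFD, 22.3, 32.7 and 18.8 in Null_LFD and 108, 260.2 and 106 in Null_HFD. The 3 Null_HFD libraries were well above the other 7 for Mest, while the wild-type diets overlapped. Its interaction was 3.03 (SE 0.64, limma adjusted p = 0.938).

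Sfrp5, a secreted antagonist of Wnt signalling known to increase as adipocytes grow, measured 2.26 and 5.39 TPM in WT_LFD, 3.04 and 59.9 in WT_HFD, 4.41, 5.26 and 3.4 in Null_LFD and 49.1, 96.8 and 31.2 in Null_HFD. It was high in WT_HFD 2 but not in WT_HFD 1, so its interaction of 1.57 (SE 1.34) was -0.39 without WT_HFD 1 and 3.52 without WT_HFD 2. The paternally expressed gene Nnat stood at -1.40 (SE 1.31), with WT_LFD 1 at 60.4 TPM and WT_LFD 2 at 707, and at 0.366 without WT_LFD 1. Fgf13, an intracellular FGF homologue, had an interaction of 0.85 (SE 0.28) and Trp53inp2, an autophagy regulator, 1.14 (SE 0.42). Bmp3 stood at 1.01 (SE 0.54) and the natriuretic peptide clearance receptor gene Npr3 at 1.01 (SE 0.65).

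Leptin, the satiety hormone released by enlarged adipocytes, followed the same form. Lep (chromosome 6, 29060220 to 29073877) measured 387 and 507 TPM in WT_LFD, 277 and 865 in WT_HFD, 133, 342 and 346 in Null_LFD and 990.4, 1492 and 1192 in Null_HFD. Every Null_HFD library exceeded every Null_LFD library, whereas WT_HFD 1 lay below and WT_HFD 2 above both WT_LFD libraries. Its diet difference was 0.15 (SE 0.59) in wild type and 2.26 (SE 0.48) in null, an interaction of 2.12 (SE 0.76, limma adjusted p = 0.9998). The other adipokine at an unadjusted p under 0.05 was Lcn2, lipocalin 2, which epithelium and neutrophils also make. Each was 1 of 14 tested adipokines (7.14%), beside 1.07% of all genes on the positive and 3.07% on the negative side. Lcn2 measured 116 and 47.1 TPM in WT_LFD, 262 and 395 in WT_HFD, 577, 373 and 123 in Null_LFD and 161, 114 and 55.1 in Null_HFD, with an interaction of -3.67 (SE 0.96) and thus the sign of the epithelial lists.

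Of 14 adipogenic transcription factors, 6 were positive and 8 negative, with a median of -0.0542. Pparg, the master regulator of adipocyte formation, stood at 1.04 (SE 0.60). Klf15 measured 15.5 and 14.2 TPM in WT_LFD, 8.5 and 2.73 in WT_HFD, 1.3, 9.22 and 11.2 in Null_LFD and 22.6, 7.46 and 13.7 in Null_HFD and had an interaction of 2.53 (SE 1.04). Cebpd, an early factor of adipogenesis, had -1.51 (SE 0.56) and Klf5 -1.64 (SE 0.57). Klf5 is also an epithelial gene and was below 4 TPM in every library.

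Thermogenic fat genes, which mark heat-producing brown and beige adipocytes, were positive in 12 of 14 members, beside 6476 of all 16932 genes. Their median was 1.02, but that median was 0.0813 without WT_HFD 2 and 1.84 without WT_HFD 1. Ucp1, the uncoupling protein gene, measured 153 and 859.8 TPM in WT_LFD, 266 and 3.69 in WT_HFD, 219, 56.1 and 125 in Null_LFD and 567, 49.2 and 1.35 in Null_HFD. The libraries of each group were spread over such a range that the interaction of 1.84 had an SE of 3.12, and without WT_HFD 2 it was -1.07. Otop1 was the one member with an unadjusted p under 0.05 (7.14%, against 1.07% of all genes), at 2.01 (SE 0.83).

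Matrix and adhesion genes, the compartment in which fibroblast activation protein acts, differed in sign between lists. The list of other matrix and matricellular genes had 16 of 25 members negative, beside 10456 of all 16932 genes. Its median was -0.40, which ran from -0.56 to -0.23 without 1 library. Its 1 member at an unadjusted p under 0.05 was Spp1 (4%, against 3.07% of all genes). Of 16 fibrillar and type VI collagens, 9 were positive, with a median of 0.324, and of 18 basement membrane genes 10 were positive, with a median of 0.0878. At an unadjusted p under 0.05 was 1 of the 16 collagens (6.25%, against 3.07% of all genes), Col8a1 (-1.65, SE 0.64). Of the 18 basement membrane genes there were 2 (11.1%), Lama1 (-2.10, SE 0.78) and Col4a3 (-3.16, SE 1.39). Col4a3 measured 1.41, 4.20 and 43.0 TPM in Null_HFD, the last above every Null_LFD library. Of 25 matrix proteases, inhibitors and crosslinking genes 15 were negative, beside 10456 of all 16932 genes. At an unadjusted p under 0.05 there were 3 (12%, against 3.07% of all genes). These were Ctsk, for cathepsin K (-1.29, SE 0.48), Mmp11, for a stromelysin (-2.23, SE 0.95), and the lysyl oxidase gene Loxl3 (-0.93, SE 0.40).

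Ctsk, which can degrade collagen, measured 29 and 31.1 TPM in WT_LFD, 57.5 and 56.4 in WT_HFD, 65.3, 104 and 56.3 in Null_LFD and 84.4, 50.6 and 39.4 in Null_HFD. Values for Ctsk overlapped between the null diets and did not overlap between the wild-type diets. The 11 prolyl peptidases related to Fap had a median of 0.0588, with 6 positive and 0 at an unadjusted p under 0.05. Fibroblast and progenitor genes were negative in 13 of 17 members with a median of -0.15, close to the median of all genes.

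Among 32 integrin and focal adhesion genes 18 were negative, beside 10456 of all 16932 genes. At an unadjusted p under 0.05, 4 were negative (12.5%, against 3.07% of all genes) and 1 positive (3.12%, against 1.07%). Itgb8, an integrin subunit that activates latent TGF-beta, measured 6.35 and 3.84 TPM in WT_LFD, 7.22 and 9.45 in WT_HFD, 11.4, 17.1 and 10.9 in Null_LFD and 6.42, 8.6 and 5.46 in Null_HFD, without overlap of the diets in either genotype, and had an interaction of -1.48 (SE 0.45). Src stood at -0.97 (SE 0.35), Itgav at -0.64 (SE 0.26), Ctgf, a target of YAP and TGF-beta, at -1.96 (SE 0.72) and the laminin receptor gene Itga7 at 1.20 (SE 0.47). Of 20 TGF-beta signalling genes 17 were negative with a median of -0.15, close to the median of -0.13 over all genes. The ligand gene Tgfb2 was the one at an unadjusted p under 0.05 (5%, against 3.07% of all genes). Tgfb2 measured 3.01 and 2.1 TPM in WT_LFD, 7.75 and 11 in WT_HFD, 5.58, 20.2 and 7.17 in Null_LFD and 5.92, 6.9 and 3.9 in Null_HFD, an interaction of -2.24 (SE 0.69).

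The mTOR pathway, named in the title of the series, had an interaction close to that of all genes. Its 34 complexes and regulators had a median of -0.12, with 15 positive and 19 negative members. Of the negative ones, 1 (2.94% of the list, against 3.07% of all genes) had an unadjusted p under 0.05. That gene was Akt1s1, which encodes PRAS40, an inhibitor of mTOR complex 1. It measured 19.6 and 17.8 TPM in WT_LFD, 33.3 and 48.9 in WT_HFD, 45, 25.3 and 28 in Null_LFD and 26.7, 27.2 and 29.1 in Null_HFD. WT_HFD libraries were above WT_LFD libraries and the null diets overlapped, and the interaction was -1.27 (SE 0.38). Tsc1, for hamartin, another inhibitor of the pathway, stood at -0.53 (SE 0.25). The 22 ATF4 target genes had a median of 0.0209 and 0 at an unadjusted p under 0.05, and the 22 insulin and glucose uptake genes 0.0939 and 0.

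The FGF21 pathway, whose ligand is a substrate of fibroblast activation protein, had 7 tested genes, 3 positive and 4 negative, with a median of -0.21 and 0 at an unadjusted p under 0.05. The co-receptor gene Klb stood at 0.928 and the receptor gene Fgfr2 at -1.11.

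Medians of the lymphocyte lists turned on the 2 lymph node-rich libraries. The B cell list had a median of -0.24, but -2.21 without WT_HFD 1 and 1.59 without WT_HFD 2, and the T cell list -0.45, with -2.16 and 1.35 under the same omissions. Resident macrophage genes were negative in 17 of 20 members, beside 10456 of all 16932 genes, with a median of -0.33. Cd14, a co-receptor for bacterial lipopolysaccharide that luminal progenitors also carry, measured 18.6 and 15.6 TPM in WT_LFD, 43 and 44.7 in WT_HFD, 90.4, 108 and 33.4 in Null_LFD and 33.9, 32.3 and 19.2 in Null_HFD, with an interaction of -2.60 (SE 0.64). Cd14 was the 1 resident macrophage gene of 20 (5%, against 3.07% of all genes) at an unadjusted p under 0.05. Among 20 lipid-associated macrophage genes 3 (15%, against 3.07% of all genes) had an unadjusted p under 0.05, Spp1, Cd9 (-1.13, SE 0.36) and Ctsk. That list had a median of 0.18. The 4 macrophage markers summed to 173 TPM in WT_LFD, 192 to 231 in WT_HFD, 180.4 to 235 in Null_LFD and 212 to 257 in Null_HFD.

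The acute phase genes Saa1 and Saa2, close copies of each other whose reads may be shared, were listed at 0 in WT_LFD 1, WT_LFD 2 and Null_LFD 3. Saa1 measured 3.51 and 18.6 TPM in WT_HFD, 31.7 and 11.1 TPM in Null_LFD 1 and 2, and 5.82, 3.2 and 1.05 TPM in Null_HFD. Interactions were -4.15 (SE 1.80) for Saa1 and -3.79 (SE 1.31) for Saa2.

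Cell cycle genes were negative in all 25 members, beside 10456 of all 16932 genes. Their median was -1.15, and 0 of them had an unadjusted p under 0.05. Mki67, a proliferation marker, measured 2.73 and 5.11 TPM in WT_LFD, 6.38 and 6.94 in WT_HFD, 2.68, 16.7 and 79.5 in Null_LFD and 4.51, 5.57 and 18.6 in Null_HFD, so that Null_LFD 3 was far above the other 9. Without Null_LFD 3 the median of the list was -0.347. Of 32 ribosomal protein genes 31 were negative, beside the same 10456 of all genes, with a median of -0.55 and 0 at an unadjusted p under 0.05. Their mean level was highest in the lymph node-rich Null_HFD 3 (1.16), and without that library the median was -0.956. Positive values were held by 6476 of all 16932 genes. Of 25 nuclear genes of oxidative phosphorylation 24 were positive, with a median of 0.228, and all 12 mitochondrially encoded genes were positive, with a median of 0.239. Without WT_HFD 2 these last 2 medians were -0.0097 and -0.109. In the ribosomal and both mitochondrial lists mt-Co2 was the one gene at an unadjusted p under 0.05, at 1.56 (SE 0.66). It made 8.33% of the mitochondrially encoded list, against 1.07% of all genes.

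Among single genes, those with the smallest unadjusted p on the negative side varied in function. Tor1aip1, which encodes a protein of the inner nuclear membrane that activates torsin (chromosome 1, 156004599 to 156036480), measured 109 and 121 TPM in WT_LFD, 378 and 495 in WT_HFD, 195, 186 and 218 in Null_LFD and 66.3, 114 and 151 in Null_HFD. The 2 WT_HFD libraries were the highest of the 10 and the diets were separate in both genotypes. Its interaction was -2.83 (SE 0.44, limma adjusted p = 0.53). Dusp23, a small dual-specificity phosphatase gene (chromosome 1, 172630764 to 172632962), measured 20.2 and 14.6 TPM in WT_LFD, 46.9 and 38.3 in WT_HFD, 39.5, 25.2 and 22.7 in Null_LFD and 6.84, 12.4 and 9.91 in Null_HFD. The 3 Null_HFD libraries were the lowest of the 10, and the interaction was -2.74 (SE 0.44, adjusted p = 0.53).

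Lsr, which encodes a lipoprotein receptor that also builds tricellular junctions of epithelium, measured 7.95 and 4.58 TPM in WT_LFD, 8.49 and 9.06 in WT_HFD, 11.3, 13.7 and 14 in Null_LFD and 4.13, 3.62 and 2.47 in Null_HFD. Null_HFD libraries were again the lowest, and the wild-type diet difference was 0.47 (SE 0.33), so the interaction of -2.15 (SE 0.42) came mostly from the null difference of -1.68 (SE 0.27). Ildr1, a member of the same junction family, had an interaction of -2.17 (SE 0.52). Car2, for carbonic anhydrase 2, measured 9.54 and 7.2 TPM in WT_LFD, 13 and 13.9 in WT_HFD, 23.6, 39.1 and 39.8 in Null_LFD and 11.9, 8.91 and 16 in Null_HFD. All 3 Null_LFD libraries were above the other 7 for Car2, with an interaction of -2.04 (SE 0.44). In wild type the Car2 levels were higher on the high-fat diet by 0.64 (SE 0.34).

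Chka, the choline kinase that starts phosphatidylcholine synthesis, measured 25.6 and 25.7 TPM in WT_LFD, 40.4 and 36.4 in WT_HFD, 56.8, 53.6 and 41.1 in Null_LFD and 32.3, 31.7 and 32.2 in Null_HFD, with an interaction of -1.19 (SE 0.26). Spry2, an inhibitor of receptor tyrosine kinase signalling, measured 11 and 9.74 TPM in WT_LFD, 20.5 and 23.2 in WT_HFD, 17.4, 20.8 and 18.9 in Null_LFD and 9.61, 16.1 and 10.2 in Null_HFD, with an interaction of -1.66 (SE 0.35). Both had separate diets in each genotype. Arhgap8, a GTPase-activating protein gene, had an interaction of -2.16 (SE 0.40), the zinc finger gene Zfp260 -1.85 (SE 0.37), the ubiquitin ligase gene Ube4b -1.92 (SE 0.38) and the chromatin remodelling subunit gene Vps72 -1.41 (SE 0.32).

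Fgg, for the fibrinogen gamma chain, measured 4.5 and 4.84 TPM in WT_LFD, 28.1 and 32.3 in WT_HFD, 10.9, 30.5 and 10.3 in Null_LFD and 11.9, 8.43 and 3.36 in Null_HFD. Fgb, the beta chain, was below 6 TPM in every library and had an interaction of -3.15 (SE 0.71), beside -3.45 (SE 0.75) for Fgg. Both genes were higher in each WT_HFD than in each WT_LFD library, and their null diets overlapped.

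On the positive side, Nr6a1, an orphan nuclear receptor gene (chromosome 2, 38723370 to 38927688), measured 11.4 and 13.7 TPM in WT_LFD, 6.45 and 4.19 in WT_HFD, 5.39, 4.69 and 5.45 in Null_LFD and 7.69, 13.1 and 8.18 in Null_HFD. Its diets were separate in both genotypes, with an interaction of 1.87 (SE 0.42, limma adjusted p = 0.938). Tdrp (chromosome 8, 13952008 to 13975032) measured 42.3 and 56.9 TPM in WT_LFD, 31.2 and 35.9 in WT_HFD, 30.4, 28.3 and 34.5 in Null_LFD and 45.2, 52.4 and 51 in Null_HFD, with an interaction of 1.20 (SE 0.27) and the same separation. Nap1l5, an imprinted gene of the nucleosome assembly family, measured 10.7 and 10.3 TPM in WT_LFD, 7.69 and 3.35 in WT_HFD, 5.88, 6.27 and 6.36 in Null_LFD and 12.8, 16.4 and 10.7 in Null_HFD, with an interaction of 1.88 (SE 0.46).

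Paqr9, of the progestin and adipoQ receptor family, measured 27.9 and 31 TPM in WT_LFD, 15.6 and 4.02 in WT_HFD, 12.8, 13.9 and 15.8 in Null_LFD and 19.9, 34.4 and 23.2 in Null_HFD. WT_LFD libraries were near those of Null_HFD and above the 2 remaining groups, and the interaction of Paqr9 was 2.53 (SE 0.63). Id3, an inhibitor of basic helix-loop-helix factors, measured 62.8 and 42.7 TPM in WT_LFD, 40.6 and 49.7 in WT_HFD, 44.4, 51.1 and 39.9 in Null_LFD and 98.2, 101 and 72 in Null_HFD. The 3 Null_HFD libraries of Id3 were the highest of the 10, and the interaction was 1.18 (SE 0.34). Smaller positive interactions with small errors were measured for the palmitoyltransferase gene Zdhhc2 (0.97, SE 0.27), for Edem1, which acts in the disposal of misfolded glycoproteins (0.86, SE 0.25), and for the ubiquitin ligase gene Rnf6 (0.83, SE 0.25).

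**Figure D5:**
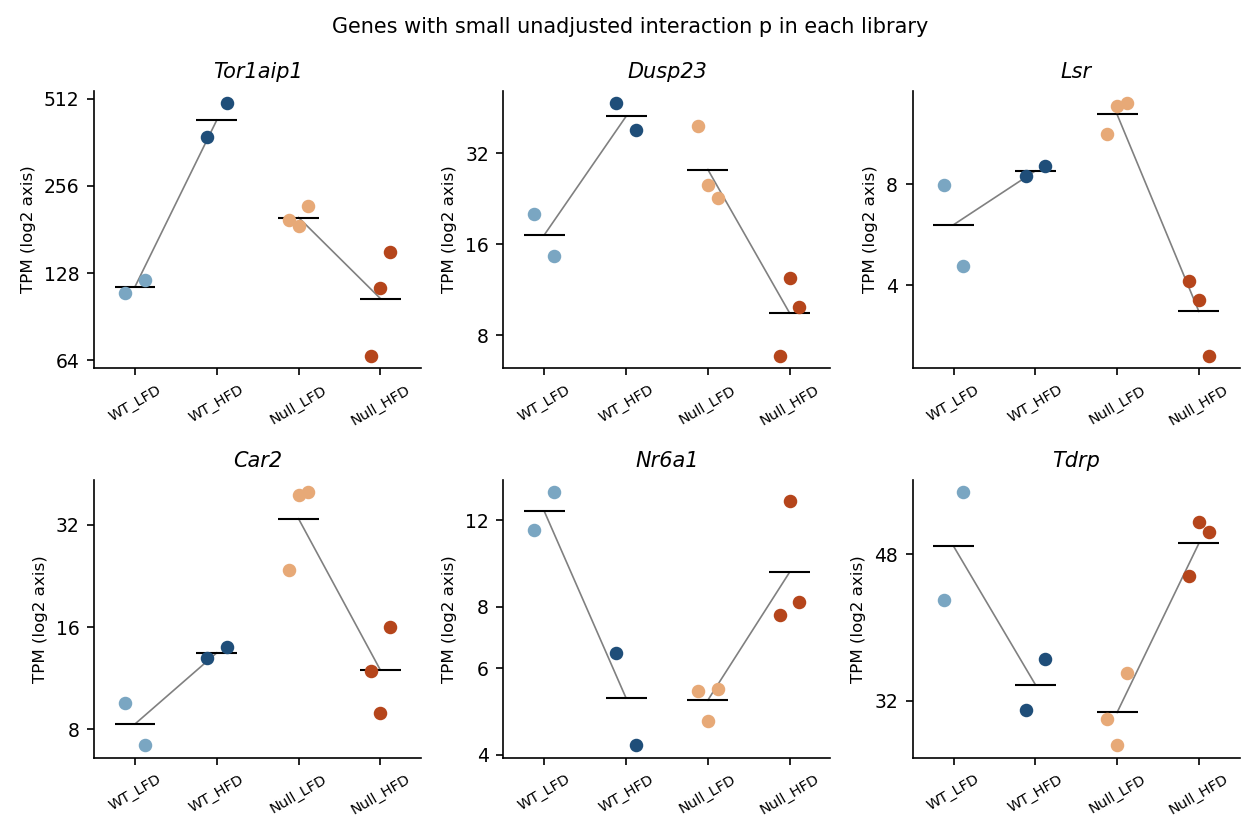
TPM of 6 genes with small unadjusted p in each of the 10 libraries on log2 axes, with the group mean on the log2(TPM + 1) scale as a bar and grey lines joining the diets of a genotype. Tor1aip1, Dusp23, Lsr and Car2 are higher on the high-fat diet in wild type and lower in null, and Nr6a1 and Tdrp show the reverse.

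Supt5 and the pseudogene Rps12l1 had larger values that rest on uncertain estimates. Supt5, which encodes a transcription elongation factor that cells need in general, measured 18.8, 7.79 and 26 TPM in Null_HFD, between 0 and 1.24 TPM in WT_LFD and under 1 TPM in the other 5 libraries. Its interaction was 4.16 (SE 0.76), and a value at or near 0 for such a gene in most libraries makes its level uncertain. Rps12l1, a processed pseudogene of the ribosomal protein gene Rps12 (chromosome 7, 56014016 to 56014414), had the smallest p of all genes (limma adjusted p = 0.234). It measured 25.7 and 329 TPM in WT_LFD, 1524 and 2544 in WT_HFD, 168, 293 and 193 in Null_LFD and 0.0447, 2.1 and 2.79 in Null_HFD, with an interaction of -10.92 (SE 1.31). Reads of a pseudogene and of its parent gene cannot be told apart with certainty.

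Complete reversals were counted without a test. A gene was counted where the high-fat libraries all lay on one side of the low-fat libraries in one genotype and all on the other side in the other, with both diet differences at least 0.5. There were 100 such genes (0.591%) with higher levels on the high-fat diet in wild type and lower ones in null, and 16 (0.0945%) with the reverse. Of the 100, 80 were protein coding and 15 were pseudogenes. The secretory luminal, hormone-sensing luminal and basal lists, with 19, 21 and 14 tested members, held 4, 3 and 2 of the 100. Those lists do not hold every epithelial gene. Plet1 and Ildr1, for example, are among the 100 and in no list, so these 9 are not all the epithelial genes counted. Of the 16, 11 were protein coding, 4 were pseudogenes and 1, Hmgcs1, was a member of the cholesterol list. Without the 2 lymph node-rich libraries, which leaves fewer libraries that must not overlap, the counts were 214 and 63.

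Of the genes in no list, Plet1, a marker of epithelial progenitors, measured 19.4 and 10.2 TPM in WT_LFD, 58.8 and 41.2 in WT_HFD, 58.8, 147 and 42.3 in Null_LFD and 39.6, 20.4 and 7.25 in Null_HFD, with an interaction of -3.64 (SE 0.96). The homeobox genes Irx1 and Irx2 had -2.39 (SE 0.82) and -2.41 (SE 0.90), and Fxyd3, a regulator of the sodium pump, -2.58 (SE 0.79). In each of these genes the level of Null_HFD 3 was the lowest of the null libraries. Mup7, of the highly similar major urinary protein genes, whose reads may be shared, measured 6.55 and 0.544 TPM in WT_LFD, 9.1 and 6.83 in WT_HFD, 1.3, 2.82 and 1.7 in Null_LFD and 0.396 in Null_HFD 1, and was listed at 0 in Null_HFD 2 and 3.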

How the data were processed

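The libraries were made per the labels' protocols with TruSeq Stranded Total RNA and Ribo-Zero Gold. The deposited values are log2(TPM + 1) per gene symbol and library, a unit inferred from the values. Per the submitters' processing notes kallisto, limma and GRCm38 were used; what each did, and in which version, is not given in the sources used here. Read depth is unknown.

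The 10 libraries were grouped by genotype and diet. Genes with at least 1 TPM in 2 libraries entered a model with a mean for each of the 4 groups (limma 3.58.1 in R 4.3.3, prior variance dependent on the mean, 6 residual degrees of freedom). Tests were two-sided, with Benjamini-Hochberg adjustment over 16932 genes and calls at 0.05. The pseudocount of 1 understates differences of low genes. Each p value sets an interaction against the spread of these samples within groups. That spread is pooled over the 4 groups and drawn towards that of genes of similar level. The line without a symbol (at most 0.0108% of TPM) was left out.

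The members and the 46 gene lists (879 entries, 860 tested) were chosen with earlier results of these data known. Named genes were those with the smallest p in each direction at 5 TPM or more, complete reversals, and up to 5 of each list, of which a part is given. Some members of the cholesterol list are counted in its summary and not reported singly here. Bmp3, Cel, Csn1s1, Csn1s2a, Cyp51, Ehf, Fasn, Fgb, Fxyd3, Idi1, Ildr1, Insig1, Itgav, Kit, Krt18, Krt5, Krt8, Lalba, Mki67, Muc15, Npr3, Pparg, Rps12l1, Sc5d, Scd1, Sqle, Srebf2 and Ucp1 were named after their values were seen. Coordinates are from GENCODE M21 (GRCm38), which matched 16180 of the tested symbols. The procedure was tested on simulated data. Alternatives covered scaling, the pseudocount, the filter, the variance model, sample weights, a replicate block and left-out libraries.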

Additional observations from a re-analysis of the deposited data

Results flagged for a closer look

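In 30 of the genes given here the high-fat libraries all lay on one side of the low-fat libraries in wild type and all on the other side in null, with both diet differences at least 0.5. Such a reversal was itself a rule for naming genes, so their number among the genes given does not show how common it is. Over all 16932 genes tested, 116 (0.685%) were counted in either direction. The count was a description of all 10 libraries, and limma's interaction passed for 0 of the 30 (adjusted p from 0.234 to 0.9998). In 24 of them levels were higher on the high-fat diet in wild type and lower in null, with these interactions on the log2(TPM + 1) scale. The epithelial list members were Csn3 (-4.00), Wap (-4.43), Folr1 (-3.32) and Muc15 (-3.37) of the secretory luminal list, Epcam (-2.28), Cldn3 (-2.63) and Ehf (-2.40) of the hormone-sensing luminal list, and Trp63 (-2.36) and Cdh3 (-1.55) of the basal list. The integrin gene Itgb8 stood at -1.48 and the carbonic anhydrase gene Car2 at -2.04. Genes in no list were Plet1 (-3.64), Mup7 (-2.74), Dusp23 (-2.74), Tor1aip1 (-2.83), Irx1 (-2.39), Irx2 (-2.41), Fxyd3 (-2.58), Ildr1 (-2.17), Arhgap8 (-2.16), Zfp260 (-1.85), Spry2 (-1.66), Chka (-1.19) and the pseudogene Rps12l1 (-10.92). The reverse was measured for Hmgcs1 (1.83) of the cholesterol list and for Nap1l5 (1.88), Paqr9 (2.53), Nr6a1 (1.87), Tdrp (1.20) and Ppp1r3d (1.49), which encodes a targeting subunit of the glycogen phosphatase.

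The 5 luminal markers summed to 1110 to 2113 TPM in Null_LFD and 257 to 706 TPM in Null_HFD, and the part of epithelial content in these values was not tested.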

How the results depend on the processing

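The count of 0 called genes became 3 without the filter on low values (Fau-ps1, Gm9234 and Gm9775) and 0 to 2 when 1 library was left out, with Gm15772 and Rps12l1 called without WT_LFD 2 and Rpl23a-ps3 without Null_HFD 2. Without a wild-type library its group has 1 sample, which is assumed to vary like the other groups. Genes at an unadjusted p under 0.05 with a positive interaction (182) numbered 311 with median-of-ratios scaling, 278 without the filter, 403 with sample weights, 325 without both lymph node-rich libraries and 121 to 437 without 1 library. Negative ones (519) numbered 871 with sample weights and 258 to 804 without 1 library. Reversals up in null (16) numbered 8 with a filter of 5 TPM, 4 with a pseudocount of 5, 63 without both lymph node-rich libraries and 24 to 49 without 1 library. Reversals down in null (100) numbered 38, 214 and 72 to 217 with that pseudocount and under these omissions. Fewer libraries must not overlap when some are left out. For other changes the cause was not tested.

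The median of the cholesterol list ran from 0.643 to 1.42 without 1 library. Of 874 recomputed medians of the 46 lists, 827 moved by less than the spread between replicates and 47 by more. That spread was the standard deviation within groups of the mean level of a list, 2.14 for the B cell list. A median can turn its sign within it, as that of the B cell list did (-0.24, and 1.59 without WT_HFD 2). The count is therefore no measure of stable signs, which turned without 1 library in 28 of the 46 lists. Many of the 105 genes given here with values were named for a small p, a reversal or an extreme list value. The count of kept signs therefore does not describe genes in general. Of the 105, 98 kept their sign under every alternative. The others were Aldh1a3 (0.182 without both lymph node-rich libraries), Fap (-0.0115 without both lymph node-rich libraries, -0.179 to 0.672 without 1 library), Fasn (0.0628 with scaling, 0.283 with sample weights, -1.73 to 1.60 without 1 library) and, without 1 library, Glycam1 (-8.33 to 1.07), Nnat (-3.16 to 0.366), Sfrp5 (-0.387 to 3.52) and Ucp1 (-1.07 to 4.76).

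Whether the replicate numbers pair the samples was not settled here. The correlation of deviations from the group means over 13 same-numbered pairs ran from -0.346 to 0.412. It cannot decide this, because the deviations of the 2 libraries of a wild-type group mirror each other. With the replicate number as a block, 0 genes were called (smallest adjusted p 0.0692), and 215 positive and 693 negative genes had an unadjusted p under 0.05. Depth sets no stated limit here, since TPM keep no read numbers. The 2 wild-type libraries per diet limit the precision of every interaction.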

Other observations

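The milk genes were also set against general epithelial genes of the same library. Relative to the mean log2 level of Krt8, Krt18, Epcam and Cdh1, Csn3 stood at 1.13 and 0.436 in WT_LFD, 2.38 and 1.97 in WT_HFD, 3.84, 2.50 and 1.20 in Null_LFD and 2.54, 0.852 and 2.24 in Null_HFD. On this scale the wild-type diets did not overlap and the null diets did. The interaction of Csn3 was then -2.03, beside -4.00 without the reference. For the other secretory genes it was -2.92 in Csn1s1, -1.40 in Muc15, -1.35 in Folr1 and -1.09 in the transcription factor gene Elf5, and -1.70 in Lcn2. These values describe the ratio of secretory to general epithelial transcripts and were not tested.

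The diet difference of Elf5 on that relative scale was 1.23 in wild type and 0.145 in null. That of Lcn2 was 1.62 in wild type and -0.078 in null. The relative null differences of Csn3 and Csn1s1 were -0.637 and -1.58, against 1.40 and 1.34 in wild type.

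Among 5 further lists, read beside the median of -0.13 over all genes, circadian clock genes were negative in 15 of 19 members with a median of -0.48, type I interferon genes in 18 of 22 with -0.22, and heat shock and unfolded protein response genes in 16 of 22 with -0.21. Endothelial genes had a median of 0.0388 with 11 of 20 positive. Fatty acid oxidation genes were positive in 14 of 17 members with a median of 0.274, which was -0.0087 without WT_HFD 2. None of these 5 lists had a member at an unadjusted limma p under 0.05.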
